A study of Rattus norvegicus with 9 samples.

Results

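Transcription factors act in the nucleus, but arrays of dendrite RNA also carry signal for their mRNAs, and 6 such genes of excitatory neurons are described here: Neurod1, Neurod2, Neurod6, Bhlhe22, Mef2c and Tbr1. All probe sets that name only 1 of these genes were taken, which gave 7 of the 31042 probe sets and 6 of the 14217 genes on the array. Mef2c had 2 probe sets and each of the other 5 genes had 1, and 0 further probe sets named a member together with another gene. The genes were chosen as markers of excitatory neurons with their rank in these arrays known, since Neurod2 and Bhlhe22 were already seen among the highest 5% of genes. Their levels are therefore given as a description without a test. The differences between pool sizes played no part in the choice and were tested.

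The RNA came from dendrites of Sprague-Dawley rat hippocampal neurons, taken from embryos at embryonic day 19 and held in dispersed culture for 14 days without treatment. Cell bodies were removed with a glass pipette, and severed dendrites of several cells were combined into pools of 100, 200 or 400, with 3 arrays for each pool size and 9 in all. The labels number the arrays of a pool size as biological replicates without saying which cultures they came from, so that p-values measure only the spread between these pools. Axons could not be told from dendrites by shape, and the methods allow for a small axonal share. A pool mixes many dendrites, so fewer dendrites that carry an mRNA and less of it per dendrite cannot be told apart.

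NEUROD1, NEUROD2 and NEUROD6 are basic helix-loop-helix (bHLH) activators that bind E-box DNA as dimers with E proteins and drive the differentiation of excitatory neurons, while Id proteins take up E proteins and thereby hinder them. BHLHE22 is a bHLH repressor of the branch related to the Olig factors. MEF2C is a MADS-box factor that responds to calcium and activity, is held back by class IIa histone deacetylases and limits the number of excitatory synapses. TBR1 is a T-box factor of early-born glutamatergic neurons of the cortex.

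Values are log2 probe set signals made with RMA, which evens out the signal distributions of the arrays. A percentile below is the place of a gene's signal among the 14217 genes of the same array, where 100 is the highest. Signals depend on how well each probe binds, so percentiles order signals and not amounts of mRNA. The values hold no call of presence or absence. Medians of the 9 arrays were 7.46 to 7.53, and any pair of arrays correlated at 0.678 to 0.878 over probe sets. Replicate 1 of the 400-dendrite pools had the lowest mean correlation with the others, at 0.749. The 3′ probe set of Gapdh exceeded its 5′ probe set by 0.84 to 2.99 log2 units. The labelled cell type is pyramidal neurons. Their vesicular glutamate transporter gene Slc17a7 had a median percentile of 71.0 and Camk2a, a kinase mRNA of their dendrites, 28.8. Of 13 measured pyramidal neuron markers other than the 6 genes, 9 were above the 50th percentile, with a list median of 59.1. Among them Nrgn was highest at 99.4 and Emx2 lowest at 4.74. The inhibitory markers Gad1, Gad2 and Slc32a1 stood at 13.7, 15.6 and 11.6. These were the lowest of 12 measured interneuron markers, of which 6 were above the 50th percentile, with a list median of 49.1 and Calb2 highest at 86.7. Astrocyte markers were not low as a group: 8 of 13 measured were above the 50th percentile, the list median was 61.9, and Gfap stood at 84.1. Median percentiles were 30.3 for microglia markers, 56.8 for the oligodendrocyte lineage, 54.7 for endothelial cells and 27.7 for fibroblasts and mural cells.

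Neurod2 gave a high and even signal on all arrays. Its log2 signal was 13.44, 13.76 and 13.52 in pools of 100 dendrites, 13.69, 13.78 and 13.51 in pools of 200, and 13.36, 13.48 and 13.88 in pools of 400. The mean was 13.60 ± 0.18 (SD, n = 9), the 3 pool sizes overlapped, and the 9 arrays spanned 0.52 log2 units. Neurod2 lay between the 99.86 and 99.95 percentiles on 9 of 9 arrays and took place 9 of 14217 by median rank. Other bright probe sets were also even. The means of the 500 probe sets nearest in mean signal ran widely, from 11.71 to 15.34. Their median SD was 0.21, and 31.8% varied less than Neurod2.

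High and even signals also occurred for transcription factor genes of other organs. Pax2, a factor of the developing kidney, was at 12.04 ± 0.21 and Gata1, a factor of red blood cell precursors, at 12.03 ± 0.19 (SD, n = 9 each), with median percentiles of 99.24 and 99.23. Among the array's control probe sets, the middle probe set of hexokinase was at 12.65 to 13.78 and the 3′ probe set of the same transcript at 7.04 to 8.76. Neurod2 had no second probe set to compare. Whether binding of other transcripts contributed to the Neurod2 signal was not tested.

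Neurod6, a marker of postmitotic pyramidal neurons, was high in every pool. Its log2 signal was 9.87, 9.21 and 9.36 in pools of 100 dendrites, 9.43, 9.13 and 8.77 in pools of 200, and 9.63, 10.07 and 9.10 in pools of 400. The mean was 9.40 ± 0.41 (SD, n = 9), with overlap of all pool sizes, and 9 of 9 arrays placed the gene above the 50th percentile and 0 of 9 in the top 5%. Its percentiles ran from 79.9 to 93.0 with a median of 88.5. Where each gene was represented by its brightest probe set, the median was 82.1.

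Neurod1, which acts early in neuronal differentiation and in granule cells of the dentate gyrus, differed more from pool to pool than Neurod2 and Neurod6. Its log2 signal was 6.73, 9.63 and 8.54 in pools of 100 dendrites, 7.96, 8.73 and 7.13 in pools of 200, and 6.76, 8.71 and 6.69 in pools of 400. Each pool size held both high and low arrays, with a mean of 7.88 ± 1.09 (SD, n = 9). The percentile was highest at 90.8 in replicate 2 of the 100-dendrite pools and lowest at 25.2 in replicate 3 of the 400-dendrite pools, with a median of 61.3. Of the 500 probe sets nearest in mean signal, 93.4% varied less than Neurod1.

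Bhlhe22 was high in most pools but not in all. Its log2 signal was 9.77, 8.97 and 10.29 in pools of 100 dendrites, 10.55, 10.93 and 11.46 in pools of 200, and 8.55, 11.53 and 10.44 in pools of 400. The pools of 200 lay above those of 100, and the pools of 400 held both the highest and the lowest of the 9 arrays. The mean was 10.28 ± 1.03 (SD, n = 9), more variable than 82.6% of the 500 probe sets nearest in mean signal. Bhlhe22 was in the top 5% on 5 of 9 arrays, with a median percentile of 95.16 that lay just inside that limit and a lowest one of 75.3. Where each gene was represented by its brightest probe set, the median percentile was 91.1, so that its place in the top 5% depended on how the probe sets of other genes were combined.

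Mef2c was in the middle and lower part of the range, and its 2 probe sets did not follow each other. Probe set 1372332_at had log2 signals of 7.39, 8.40 and 6.45 in pools of 100 dendrites, 6.74, 6.52 and 7.06 in pools of 200, and 7.77, 5.52 and 6.92 in pools of 400. Probe set 1373410_at had 6.00, 8.71 and 7.41 in pools of 100, 7.55, 6.60 and 7.78 in pools of 200, and 6.76, 7.39 and 7.88 in pools of 400. The pool sizes overlapped in both probe sets. The second was higher on 7 of 9 arrays, the gap between them reached 1.87 log2 units, and across the 9 arrays they correlated at a Pearson's r of 0.21. Both target expressed sequence tags rather than the reference mRNA, as do the probe sets of Neurod6, Bhlhe22 and Tbr1. Those of Neurod1 and Neurod2 target the reference mRNA. The median of the 2 Mef2c probe sets gave a level of 7.16 ± 0.63 (SD, n = 9) and a median percentile of 37.6. On 1 of 9 arrays Mef2c was above the 50th percentile. That array was replicate 2 of the 100-dendrite pools, at the 75.5 percentile, where both probe sets had their highest value.

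Tbr1 had the lowest signal of the 6 genes. Its log2 signal was 6.40, 5.73 and 5.31 in pools of 100 dendrites, 5.33, 6.04 and 5.27 in pools of 200, and 5.25, 5.26 and 5.39 in pools of 400. The mean was 5.55 ± 0.41 (SD, n = 9) with overlap of all pool sizes, and 0 of 9 arrays placed it above the 50th percentile. Its percentiles ran from 1.69 to 19.3 with a median of 2.44, and it took place 14020 of 14217 by median rank. The Tbr1 signal lay among the lowest genes, so these values do not show the mRNA in dendrites. With no call of presence or absence, they also cannot show that Tbr1 mRNA was absent. Its probe set targets an expressed sequence tag, and how well it detects the mRNA was not tested.

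**Figure D1:**
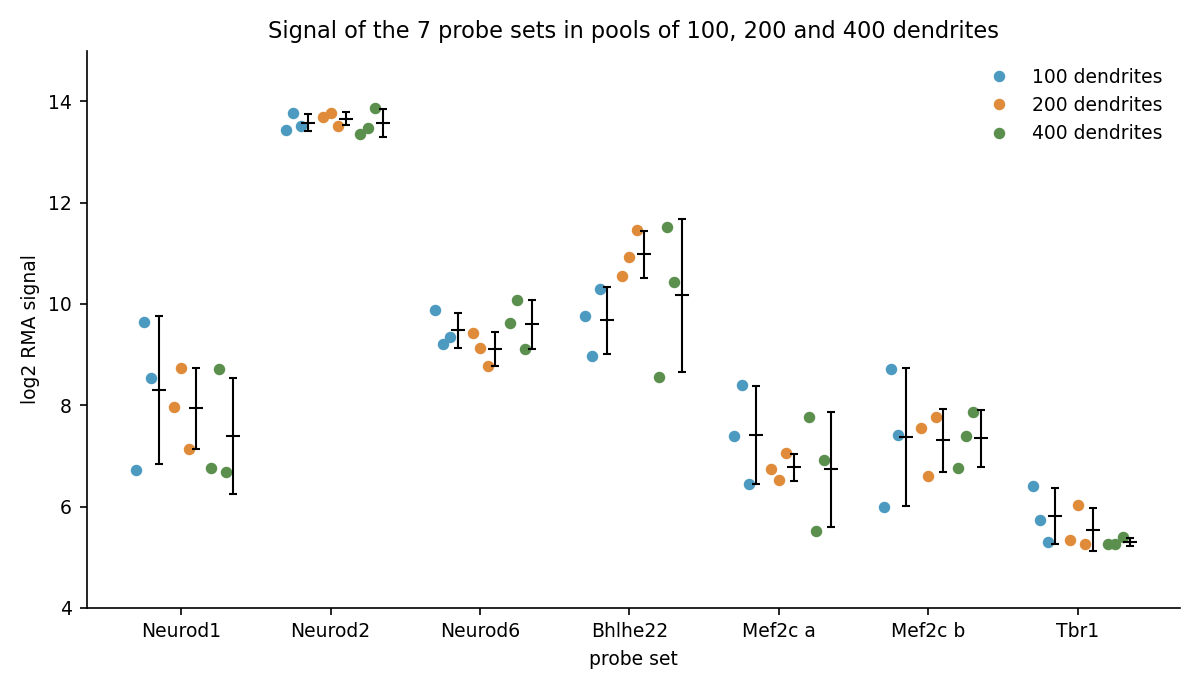
Log2 RMA signal (vertical axis) of the 7 probe sets, with points for single arrays by pool size and black bars for the mean and SD of 3 arrays. Mef2c a is probe set 1372332_at and Mef2c b is 1373410_at. Neurod2 stays between 13.36 and 13.88, Tbr1 lies at 5.25 to 6.40, and Neurod1 and Bhlhe22 spread over 2.95 and 2.98 log2 units.

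By percentile the genes ran in the order Neurod2, Bhlhe22, Neurod6, Neurod1, Mef2c and Tbr1. Both ends of this order were the same on every array, with Neurod2 above Bhlhe22 and Mef2c above Tbr1 on 9 of 9. Neighbours in the middle overlapped: Bhlhe22 was above Neurod6 on 6 of 9 arrays, Neurod6 above Neurod1 on 8 of 9, and Neurod1 above Mef2c on 6 of 9. With 1 probe set for most genes, this order holds for signals and not for mRNA amounts.

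**Figure D2:**
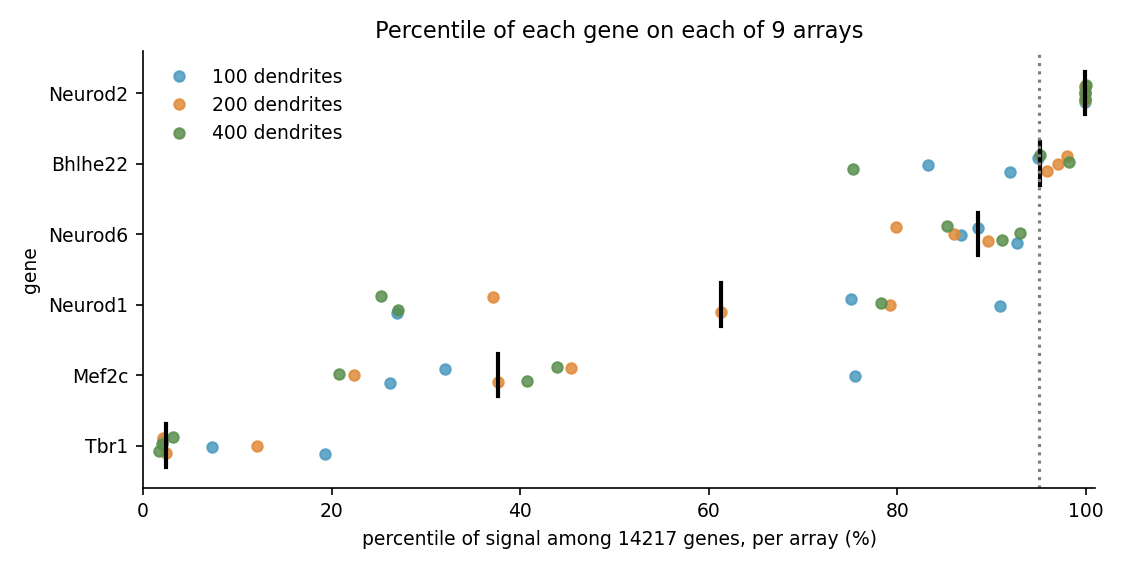
Percentile of each gene's signal among 14217 genes (horizontal axis, percent), with 1 point per array coloured by pool size and a black bar at the median of 9 arrays. Points right of the dotted line are in the top 5%. Neurod2 sits at 99.86 or above on every array, Bhlhe22 lies on both sides of the line, and Neurod1 spreads from 25.2 to 90.8.

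The comparison of pool sizes asked whether the number of dendrites collected went with a difference in these mRNAs. None of the 7 probe sets passed in limma, for any of the 3 pairs of pool sizes or for a slope per doubling of dendrites (adjusted p of 0.9998 for each member, with adjustment over 31042 probe sets). For 400 against 100 dendrites 0 of 7 passed, against a background of 0.0% of all probe sets. At an unadjusted p under 0.05 limma also gave 0 of 7, where the background was 2.21% for 400 against 100 dendrites, 2.87% for 200 against 100, 2.04% for 400 against 200 and 2.46% for the slope. After adjustment, the methods' t-test gave 0 of 7 in each pair. Unadjusted, it gave 1 of 7 for 200 against 100 dendrites (Bhlhe22), beside 3.39% of all probe sets, and 0 of 7 for 400 against 100 and 400 against 200, beside 2.58% and 2.81%.

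Bhlhe22 had the largest difference of the 7 probe sets. Its mean was 10.98 ± 0.46 with 200 dendrites and 9.67 ± 0.67 with 100 (SD, n = 3 each). By limma the difference was 1.31 log2 units, and its 95% interval ran from -0.17 to 2.78. The 3 arrays of 200 dendrites lay above the 3 arrays of 100, which was so for 3.85% of all probe sets in this direction. It was the only non-overlap among the 7 probe sets in the 3 comparisons. The background was 3.56% for lower in pools of 200 than of 100, 3.21% and 2.96% for higher and lower in pools of 400 than of 100, and 3.3% and 3.27% for higher and lower in pools of 400 than of 200. Pools of 400 did not continue this step, at 10.17 ± 1.51 (SD, n = 3), and 400 against 100 dendrites differed by 0.50 (interval -0.98 to 1.97). Without replicate 2 of the 400-dendrite pools that difference was -0.18, and without replicate 1 of these pools it was 1.31. Most interneuron markers had lower means in pools of 200 than of 100. Their mean log2 level over 12 of 15 listed genes was 7.36 to 7.59 in pools of 100 and 6.78 to 7.26 in pools of 200. Of the 12, 10 had the lower mean. In the limma fit of 14217 genes 0 of 12 passed, as did 0 of all genes. At an unadjusted p under 0.05 there were 3 of 12, beside 3.03% of all genes. The median difference of the list was -0.46 log2 units, beside 0.0017 over all genes. Astrocyte markers had a median difference of -0.47, with 9 of 13 lower, 0 of 13 past the threshold and 1 at an unadjusted p under 0.05, and their mean level was 7.83 to 8.58 in pools of 100 and 7.10 to 8.18 in pools of 200. The part of either list in the Bhlhe22 values was not tested.

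Neurod1 had the lowest mean in the largest pools. The means were 8.30 ± 1.47 with 100 dendrites, 7.94 ± 0.80 with 200 and 7.39 ± 1.15 with 400 (SD, n = 3 each). By limma, 400 against 100 dendrites differed by -0.91 log2 units (interval -2.60 to 0.77). Without replicate 2 of the 100-dendrite pools this was -0.25, and without replicate 1 of these pools -1.70. Tbr1 differed by -0.51 (interval -1.41 to 0.39), or by -0.22 without replicate 1 of the 100-dendrite pools, and its 3 pools of 400 had an SD of 0.08.

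Neurod2, Neurod6 and 1 probe set of Mef2c had the smallest differences between the largest and the smallest pools. For 400 against 100 dendrites Neurod2 differed by -0.0025 log2 units (interval -0.77 to 0.77), so that differences of up to 0.77 in either direction are within the precision of this fit. Where the variance was allowed to follow the signal level, with robust settings, the interval ran from -0.37 to 0.37. Neurod6 differed by 0.12 (interval -0.77 to 1.01). The 2 probe sets of Mef2c differed by -0.67 (interval -2.03 to 0.68) and -0.03 (interval -1.43 to 1.37). The former was -0.07 without replicate 2 and -1.19 without replicate 1 of the 400-dendrite pools, and -0.18 without replicate 2 and -1.15 without replicate 3 of the 100-dendrite pools. Over the 6 genes the median difference was -0.18 log2 units, with 2 higher and 4 lower, beside a median of 0.02 over all 14217 genes.

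**Figure D3:**
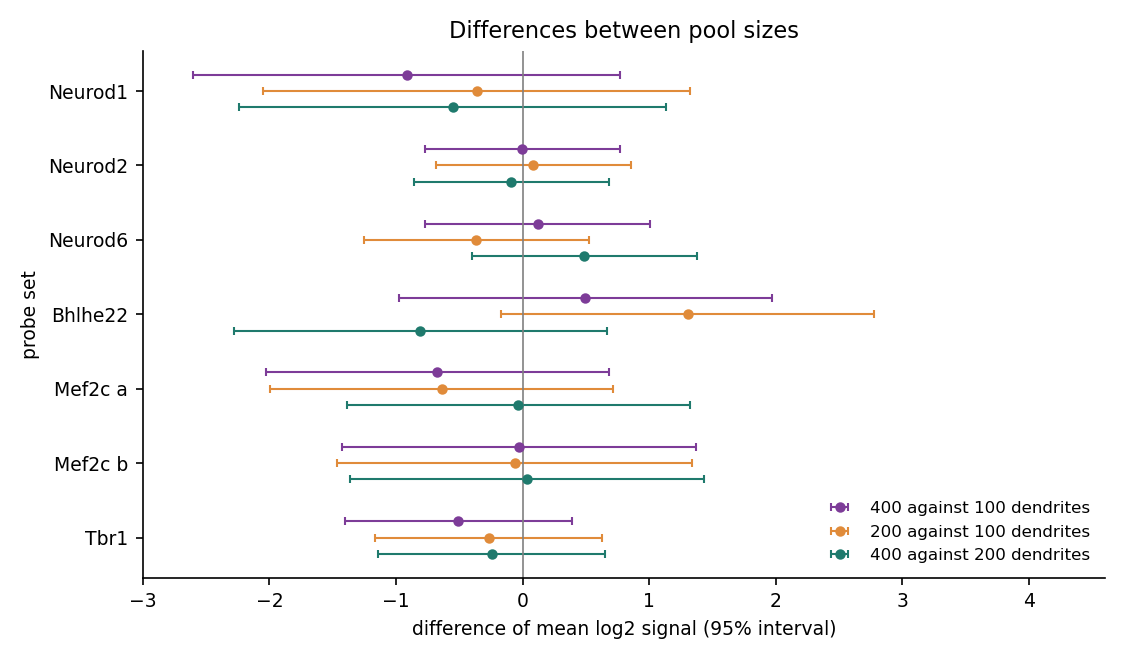
Difference of mean log2 signal between pool sizes (horizontal axis) for the 7 probe sets, with 95% intervals from limma on 9 arrays. Mef2c a is probe set 1372332_at and Mef2c b is 1373410_at. All 21 intervals include 0, and the farthest point from 0 is Bhlhe22 for 200 against 100 dendrites at 1.31.

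The genes did not share 1 pattern across the 9 arrays. Among the 15 pairs of member genes Pearson's r ran from -0.54 (Neurod2 with Neurod6) to 0.35 (Neurod2 with Mef2c), with 8 of 15 above 0, as a description over arrays that share 1 normalization. Other genes ran closer to each member, as the highest of 14216 correlations over 9 arrays will. Closest to Neurod2 were Mtmr4, a lipid phosphatase (r = 0.93), Plppr3 (0.92) and Rpp30, a subunit of RNase P (0.89). Closest to Neurod6 were Cd93 (0.97), Sfpq, a splicing factor (0.94), and Mgst1 (0.94). Neurod1 was most like the katanin subunit Katnal1 (0.93), the calcium-binding protein gene Calb2 (0.92) and the RNA helicase gene Ddx6 (0.91), and Bhlhe22 most like the deubiquitinase gene Mysm1 (0.95), the proteasome assembly factor Pomp (0.95) and Stradb (0.95). For Mef2c these were Rabgap1l (0.97), Cfhr4 (0.95) and Nr5a1, a nuclear receptor of steroid-producing tissues (0.93), and for Tbr1 Fcmr (0.94), Tmem243 (0.93) and Luzp2 (0.93).

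Relatives and partners of the bHLH factors had signals from low to high. Among the neurogenins, which act upstream of the NeuroD factors, Neurog3 stood at the 94.2 percentile (10.01 ± 0.95, SD, n = 9), Neurog2 at 82.5 (8.99 ± 0.54) and Neurog1 at 58.2 (7.68 ± 0.48). Neurog3 is also known from endocrine cells of the pancreas and is counted below among the factors of other organs. Of the E proteins that pair with bHLH activators, Tcf4 was at 10.18 ± 0.49 with a median percentile of 95.1, Tcf12 at 68.1 and Tcf3 at 49.2. Of the Id inhibitors, Id2 stood at 80.1, Id1 at 53.6, Id4 at 35.4 and Id3 at 15. Among the factors related to BHLHE22, Olig2, which marks the oligodendrocyte lineage, stood at 79.5, Olig1 at 55.7 and Olig3 at 26.4. Of these 13 genes none passed between pool sizes in the limma fit of 14217 genes, where 0 of all genes passed. In the 3 pairs 0 of the 13 had an unadjusted p under 0.05. Of all genes, 2.41%, 3.03% and 2.3% did for 400 against 100, 200 against 100 and 400 against 200 dendrites. For the slope, 2.73% of all genes and 0 of these 13 did.

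Mef2c was the lowest of its family by the median of its 2 probe sets. Mef2b stood at the 90.4 percentile (9.51 ± 0.92, SD, n = 9), Mef2d at 66.9 and Mef2a at 45.8 (7.34 ± 0.48), above the 37.6 of Mef2c. The levels of Mef2a and Mef2c overlapped within their spread. Mef2c probe set 1373410_at alone had a mean of 7.34, so the order of these genes depended on the probe set. Of the class IIa deacetylases, which repress MEF2 targets, Hdac4 stood at 86.0, Hdac7 at 78.7 and Hdac5 at 24.8. Eomes, the T-box relative of TBR1 in intermediate progenitors, stood at 18.8.

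**Figure D4:**
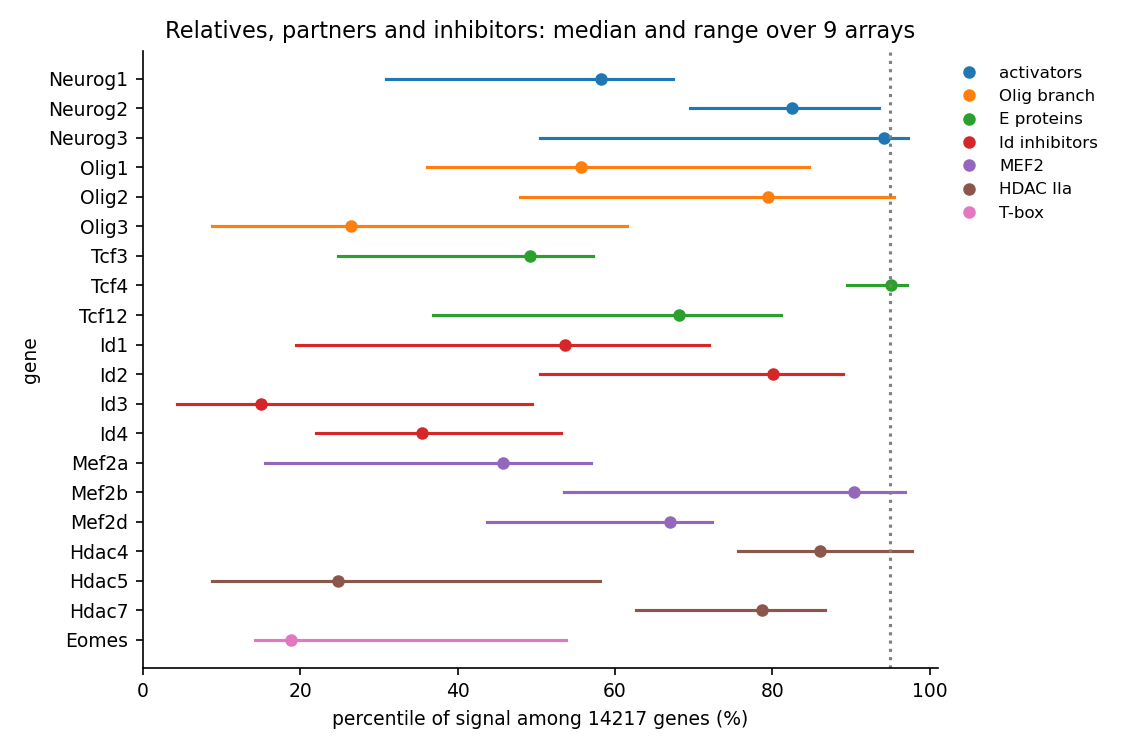
Percentile of signal among 14217 genes (horizontal axis, percent) for 20 relatives, partners and inhibitors of the factors, with a point at the median and a line from the lowest to the highest of 9 arrays. Colours mark the families, and genes right of the dotted line are in the top 5%. Tcf4 at 95.1 and Neurog3 at 94.2 lie highest, and Id3 and Eomes (18.8) lowest.

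Known targets of the factors did not pass between pool sizes either, and 0 of all 14217 genes did in any pair or for the slope. Of 8 measured MEF2 targets 0 passed in limma for each pair, with 6 higher and 2 lower in pools of 400 than of 100 and a median difference of 0.47 log2 units beside 0.02 over all genes. At an unadjusted p under 0.05 there was 1 of 8 for 400 against 100 dendrites (Arc), 1 of 8 for 200 against 100 (Bdnf), 0 of 8 for 400 against 200 and 1 of 8 for the slope (Arc), beside 2.41%, 3.03%, 2.3% and 2.73% of all genes. Egr1, an immediate early gene, had the highest percentile of these at 94.9, and Pcdh10, a protocadherin, the lowest at 1.55. Arc, whose mRNA travels to active synapses, stood at 38.5, and its mean was 7.58 ± 0.26 with 400 dendrites beside 6.38 ± 0.38 with 100 (SD, n = 3 for both). Its adjusted p in limma was 0.999. Bdnf, a neurotrophin, stood at 66.5. The 4 measured TBR1 targets were Reln (61.7), Grin2b (59.1), Bcl11a (19.95) and Ntng1 (9.62), with 3 higher and 1 lower in pools of 400 than of 100, and 0 higher and 4 lower in pools of 200 than of 100 (median difference -0.19 log2 units). In each pair 0 of 4 passed in limma or had an unadjusted p under 0.05.

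Beside other transcription factors, the 6 genes spanned nearly the whole range of signals. Their median percentile was 74.9, with 2 of 6 in the top 5% and 4 of 6 above the 50th percentile, which their choice partly fixed. Of 33 other measured factors of excitatory neurons, 1 was in the top 5% (Tcf4) and 19 were above the 50th percentile. Their median was 55.6, with Emx2, a factor of the hippocampal primordium, lowest at 4.74. Tcf4, Neurog2, Eomes, Mef2a, Mef2d and Bcl11a, given above in other lists, are among these 33. Between pool sizes 0 of these 33 passed in limma, as did 0 of all 14217 genes. At an unadjusted p under 0.05 there were 2 for 400 against 100 dendrites, Pou3f1 higher by 1.31 and Etv1 with a difference of -1.31 log2 units, and 1 for 200 against 100, Lhx9 higher by 1.43. There were 2 for 400 against 200, again Pou3f1 higher and Etv1 lower, and 3 for the slope, 2 higher and 1 lower. Over all genes the shares were 2.41%, 3.03%, 2.3% and 2.73% in this order. Factors of inhibitory neurons had a median of 21.2 over 11 genes, with 0 in the top 5%, Isl1 highest at 83.7 and Dlx5 lowest at 7.68, while 10 of the 21 listed were not measured by a probe set of their own. Factors of glia and microglia had a median of 61.1 over 15 genes, with 0 in the top 5% and Olig2 highest. Of 38 factors of other organs, 4 were in the top 5% (Pax2, Gata1, Hoxb7 and Pax8) and the median was 44.4, with Hoxa9 lowest at 0.90. The study also names Pax8 among activity-regulated genes. These lists were not compared by a test.

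**Figure D5:**
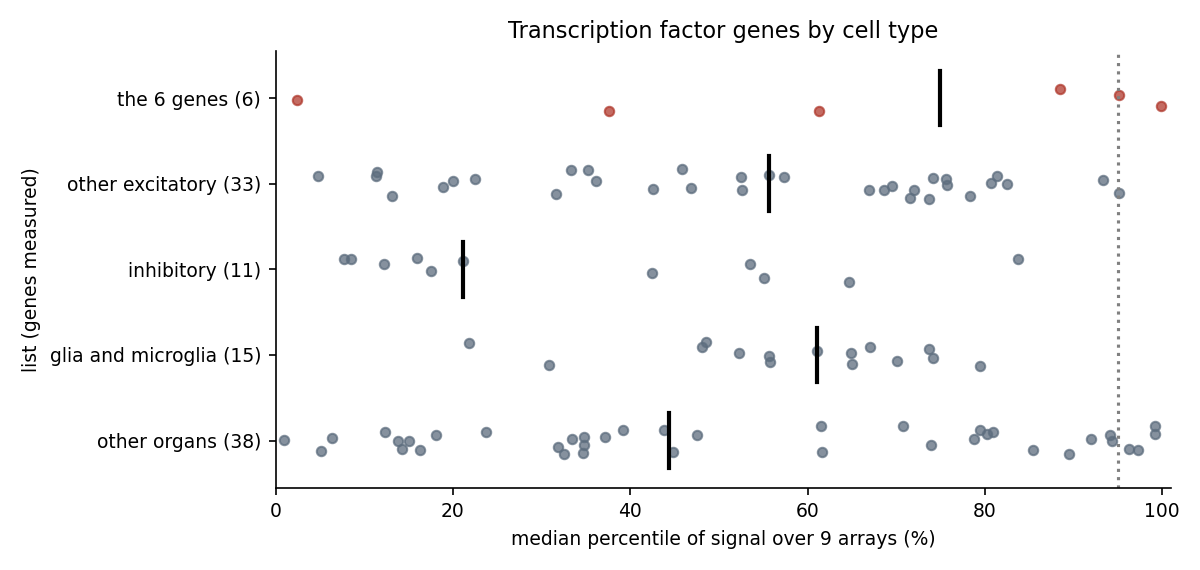
Median percentile of signal over 9 arrays (horizontal axis, percent) for transcription factor genes grouped by the cells they are known from, with 1 point per gene, a black bar at the median of the list and the number of measured genes beside its name. Genes right of the dotted line are in the top 5%. Medians are 74.9 for the 6 genes, 55.6 for other factors of excitatory neurons, 21.2 for inhibitory neurons, 61.1 for glia and microglia and 44.4 for other organs.

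Signals of RNAs that are kept in or near the nucleus, of which 3 of 6 listed were measured, are given beside those of mRNAs known to travel into dendrites. Meg3 stood at the 97.0 percentile (10.80 ± 0.57, SD, n = 9), Snhg11 at 92.7 and Miat at 76.3. The mean level of these 3 RNAs was 9.10 to 9.87 in pools of 100, 9.30 to 10.57 in pools of 200 and 9.44 to 9.93 in pools of 400, so the pool sizes overlapped. Of 22 mRNAs known from dendrites, 5 were in the top 5%, with a median percentile of 79.6, Nrgn highest at 99.4 and Fmr1 lowest at 3.02. By median percentile Bhlhe22 lay within the range of both kinds of RNA, and Neurod2 above the highest of each. The share of RNA from cell bodies in the pools was not tested.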

How the data were processed

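RNA of 9 dendrite pools was amplified linearly in 3 rounds, and equal amounts were labelled and hybridised to Affymetrix rat arrays. The deposited values are log2 signals per probe set that the authors made with RMA 2.0, per the labels. They were used as deposited, and the centring and scaling of the study's methods was tried as an alternative. No genome build or probe sequence was used here, so no positions are given. Of 31099 probe sets, 57 controls were set aside, 20826 named 1 gene, 436 several and 9780 none in the platform's table. Symbols of 20758 were updated by Entrez ID. Where a gene had several probe sets, their median was taken.

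Pool sizes were compared with limma (version 3.58.1, R 4.3.3) by 1 fit of 9 arrays, two-sided, with Benjamini-Hochberg adjustment over 31042 probe sets and a threshold of 0.05. Gene lists used a second fit of 14217 genes. The fit was tested on simulated data. Other steps used Python 3.11.15, numpy 2.4.6, pandas 2.3.3 and matplotlib 3.10.9. The members and lists were chosen with earlier results of these data known. Named were the 6 genes, the 3 genes most correlated with each, the highest and lowest gene of each list, and relatives, partners and targets. Gata1, Hoxb7, Pax8, Etv1, Pou3f1 and Lhx9 were named after their values were seen. Alternatives were other normalizations, a filter on dim probe sets, other variance settings, the methods' t-test, gene medians, a replicate block and leaving out each array.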

Additional observations from a re-analysis of the deposited data

Results flagged for a closer look

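Dixon's test over the 9 arrays was applied to the 7 probe sets and to the Mef2c median, and it marks about 1 in 20 such sets by chance. It marked 1 value: the Mef2c median in replicate 2 of the 100-dendrite pools, at 8.55 beside 6.46 to 7.42 on the other 8 arrays, with a gap of 0.541 of the whole range, above the 95% critical value. Neither probe set of Mef2c was marked alone, and the same array held the highest Neurod1 value, 9.63.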

How the results depend on the processing

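The count of member probe sets past the threshold was 0 under every alternative run, for the 3 pairs and the slope, and the smallest adjusted p was 0.985 and the smallest unadjusted one 0.0214. Of 169 differences under alternatives that kept all arrays, 167 kept their direction. With the methods' centring and scaling the Neurod2 difference turned to 0.0001 for 400 against 100 dendrites and to 0.0001 for the slope. Leaving out 1 array turned 26 of 252 differences. For 400 against 100 dendrites the values without 1 array ran from -0.1546 to 0.1039 for Neurod2, -0.1138 to 0.3697 for Neurod6, -0.1813 to 1.3066 for Bhlhe22 and -0.7141 to 0.6399 for Mef2c probe set 1373410_at. For 200 against 100 they ran from -1.1495 to 0.3047 for Neurod1, -0.7504 to 0.6036 for Mef2c 1373410_at and -0.5177 to 0.0282 for Tbr1. For 400 against 200 they ran from -0.2398 to 0.0187 for Neurod2, -1.4863 to 0.0016 for Bhlhe22, -0.5511 to 0.574 for Mef2c 1372332_at, -0.3201 to 0.3262 for Mef2c 1373410_at and -0.3836 to 0.003 for Tbr1. For the slope they ran from -0.0648 to 0.0545 for Neurod2, -0.0807 to 0.1843 for Neurod6 and -0.3268 to 0.2981 for Mef2c 1373410_at. The cause was not tested. The Bhlhe22 difference for 200 against 100 dendrites stayed between 0.95 and 1.61. The percentile moved to 99.7433 for Neurod2 and 82.12 for Neurod6 with the brightest probe set of each gene, and to 99.8277 for Neurod2 among probe sets. Same-numbered arrays did not deviate together (correlations of -0.204 to 0.087, and 1 of 9 arrays closest to its own number), and with the replicate block 0 of 7 passed. The filter on dim probe sets kept 4 of the 7, the gene medians cover the 5 genes with 1 probe set, and the methods' t-test was not run on the slope. The number of arrays limits the precision of all these values.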
